A study of Mus musculus with 9 samples.

Results

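The NF-κB subunits and feedback inhibitors were followed as 10 genes, matched by symbol to the 54838 mouse gene identifiers of the deposited expression files. The subunits were *Rela*, *Relb*, *Nfkb1* and *Nfkb2*, and the feedback inhibitors were *Nfkbia*, *Nfkbie*, *Nfkbiz*, *Tnfaip3*, *Birc3* and *Tnip1*, so that 4 and 6 genes stood in the classes, and each symbol had 1 identifier. Expression was measured by bulk RNA-seq in organoids, which are self-organising epithelial cultures started from crypts of the small intestine. The donors were mice aged 2 to 4 months with the genotype *Vil-CreERT2*;*Mettl3* fl/fl. In these mice the villin promoter drives a Cre recombinase that 4-hydroxytamoxifen (4-OHT) activates in intestinal epithelial cells, and Cre then excises the floxed part of *Mettl3*, which encodes the methyltransferase that writes the m6A mark on mRNA. The inhibitor tested was necrostatin-1 (Nec-1), which blocks the kinase RIPK1. The comparisons ask how gene expression differs with *Mettl3* deletion and with RIPK1 inhibition. EtOH DMSO organoids (n = 2) received the vehicles, EtOH Nec-1 organoids (n = 2) the inhibitor, 4-OHT DMSO organoids (n = 2) 4-OHT at 500 nM for 2 days, and 4-OHT Nec-1 organoids (n = 1) both, with DMSO or Nec-1 present for 5 days. Every group carried both the Cre transgene and the floxed alleles, so no group received 4-OHT without an allele to excise.

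NF-κB is a family of transcription factors that bind DNA as dimers. *Rela* and *Relb* encode subunits with a transactivation domain, and *Nfkb1* and *Nfkb2* encode the precursors of the subunits p50 and p52. In resting cells inhibitor of κB (IκB) proteins hold the dimers in the cytoplasm. Signals from receptors for TNF, interleukin-1 or microbial products activate the IκB kinases, the IκB is degraded and the dimers enter the nucleus. Among the genes they switch on are their own inhibitors, which is why such genes are called feedback inhibitors. In the intestinal epithelium the pathway is known for its part in innate defence and in the survival of epithelial cells exposed to TNF.

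The deposited values are FPKM, in which fragments are scaled for transcript length and library size, so that levels can be compared between genes. They summed to 450207 to 498712 per library. Fragment counts are not known, and the spacing of the lowest values put the depth of each library at 0.850 to 1.03 of the depth of EtOH DMSO replicate 1. *Mettl3* was not lower with 4-OHT, at 3.36 to 4.14 FPKM in the libraries with that label compared with 2.41 to 2.71 FPKM in the 4 libraries labelled EtOH. The values give no exon, so every direction between EtOH and 4-OHT rests on the labels of the libraries. All 10 intestinal epithelium markers were at 42.4 FPKM or more in every library. The 12 immune cell markers summed to 3.48 to 10.6 FPKM per library, with 3 to 7 of them listed at 0. *Ptprc*, which encodes the pan-leukocyte antigen CD45, was at 0.0497 FPKM or less, and *Itgax*, a marker of dendritic cells, was listed at 0 in all 7 libraries. The 8 fibroblast markers summed to 0.867 to 1.68 FPKM and the 5 endothelial markers to 0.0689 to 0.238 FPKM.

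All 10 genes were detected in each of the 7 libraries. In EtOH DMSO organoids *Nfkbia* was the most abundant, at 59.3 and 57.9 FPKM. *Tnip1* (12.8 and 14.7 FPKM) and *Relb* (11.8 and 12.9 FPKM) came next and overlapped, followed by *Rela* (8.99 and 11.3 FPKM) and *Nfkb2* (8.61 and 9.71 FPKM), which overlapped each other. *Nfkbiz*, *Birc3*, *Nfkb1* and *Tnfaip3* lay between 1.59 and 8.20 FPKM with no overlap between neighbours in that order, and *Nfkbie* was lowest at 0.784 and 0.547 FPKM. In 4-OHT DMSO organoids *Nfkbia* and *Nfkbie* still marked the ends of the order, but *Rela* stood in the second place and *Birc3* in the third, above *Tnip1*. *Nfkb2* and *Tnip1* overlapped there, as did *Tnfaip3* and *Nfkb1*. Across all libraries the highest value of a gene was between 1.27 times (*Nfkbiz*) and 4.06 times (*Birc3*) its lowest.

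**Figure D1:**
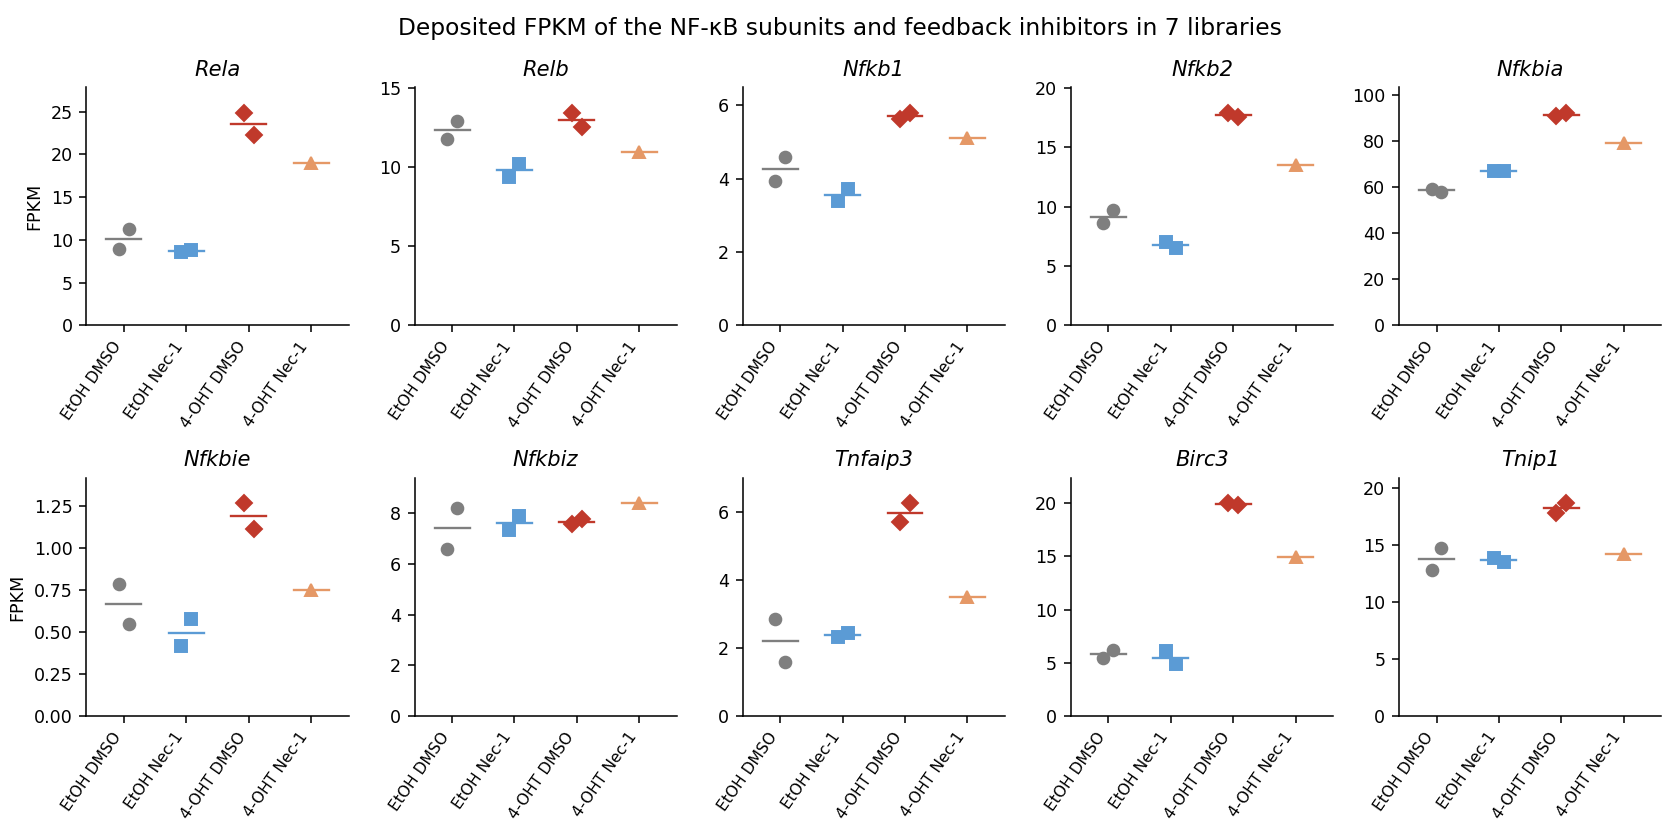
Deposited FPKM of the 10 genes, each panel with its own linear axis from 0, by group (2 libraries in each, but 1 in 4-OHT Nec-1). Points are libraries and horizontal bars are group means. Apart from *Relb* and *Nfkbiz*, each gene has both 4-OHT DMSO points above every EtOH point, and *Nfkbiz* stays between 6.59 and 8.38 FPKM.

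The promoters of the genes were read from RefSeq windows of the GRCm38.p6 assembly, the same build as the mm10 named for the files. Each window runs from 250 bases before to 50 bases after an annotated transcript start. The table held 10 windows for 7 of the 10 genes, with none for *Relb*, *Nfkb1* and *Nfkbiz*. Both strands were searched for the NF-κB consensus motif, 10 bases long, and no other motif was searched. At least 1 match was found in *Nfkb2*, *Nfkbia*, *Nfkbie*, *Tnfaip3* and *Tnip1*, which are 5 of the 7 genes, and in 5.14% of the 27025 mouse genes with a window. No match to these letters lay in the windows of *Rela* and *Birc3*. Among all windows 4.51% held a match. A match is a description of the sequence, and binding was not measured at these genes here. The feedback inhibitors are listed as genes that NF-κB switches on, so matches among the members could be foreseen from the choice of genes. The windows of *Nfkb2*, *Nfkbia*, *Tnfaip3* and *Tnip1* are shown because a match lies close before the start in each, and that of *Birc3* because it had the largest rise of the 10 genes and no match. They are written 5′ to 3′ on the strand of the gene, with the bases of each match in capitals.
Nfkb2, chr19:46304487-46304786, plus strand: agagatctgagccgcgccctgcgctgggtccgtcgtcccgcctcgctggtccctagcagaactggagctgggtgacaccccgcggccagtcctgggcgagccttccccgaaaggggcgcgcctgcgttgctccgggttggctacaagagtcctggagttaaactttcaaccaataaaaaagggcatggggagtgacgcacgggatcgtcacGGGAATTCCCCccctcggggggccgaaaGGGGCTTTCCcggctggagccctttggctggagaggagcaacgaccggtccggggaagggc
Nfkbia, chr12:55492598-55492897, minus strand: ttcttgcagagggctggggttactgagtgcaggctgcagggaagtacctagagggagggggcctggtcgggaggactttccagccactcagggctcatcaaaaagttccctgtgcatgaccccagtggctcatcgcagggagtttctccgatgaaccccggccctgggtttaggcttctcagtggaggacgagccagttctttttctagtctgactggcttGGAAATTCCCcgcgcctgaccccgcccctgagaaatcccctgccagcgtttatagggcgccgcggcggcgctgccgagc
Tnfaip3, chr10:19015361-19015660, minus strand: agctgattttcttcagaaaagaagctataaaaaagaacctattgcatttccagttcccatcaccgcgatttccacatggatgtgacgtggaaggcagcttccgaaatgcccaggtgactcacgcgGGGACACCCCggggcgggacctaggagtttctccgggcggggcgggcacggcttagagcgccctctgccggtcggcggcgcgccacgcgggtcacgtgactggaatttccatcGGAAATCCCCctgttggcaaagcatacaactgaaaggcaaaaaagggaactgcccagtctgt
Tnip1, chr11:54962891-54963190, minus strand: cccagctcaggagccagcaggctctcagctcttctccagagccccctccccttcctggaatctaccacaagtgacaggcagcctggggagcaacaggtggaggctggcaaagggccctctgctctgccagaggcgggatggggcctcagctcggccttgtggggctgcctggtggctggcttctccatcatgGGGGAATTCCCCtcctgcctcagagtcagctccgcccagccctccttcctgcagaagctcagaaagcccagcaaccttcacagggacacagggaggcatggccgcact
Birc3, chr9:7873121-7873420, minus strand: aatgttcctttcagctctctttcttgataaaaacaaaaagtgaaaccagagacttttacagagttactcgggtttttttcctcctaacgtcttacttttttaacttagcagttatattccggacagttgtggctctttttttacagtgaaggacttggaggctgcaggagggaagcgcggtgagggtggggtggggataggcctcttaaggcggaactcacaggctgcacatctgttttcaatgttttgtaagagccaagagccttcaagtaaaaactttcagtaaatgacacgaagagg

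In *Nfkb2* and *Tnip1* the capitals include GGGAATTCCC, which reads the same on both strands, so the 2 strands and the neighbouring frames gave overlapping matches. The palindrome began 39 bases before the start in *Nfkb2* and 57 bases before it in *Tnip1*, and *Nfkb2* had GGGGCTTTCC from 11 bases before the start as well. *Nfkbia* had GGAAATTCCC from 29 bases before its start, matched on the other strand. *Tnfaip3* had GGGACACCCC from 125 bases and GGAAATCCCC from 12 bases before the start. *Nfkb2* has 3 annotated starts and each of their windows held a match, of which the last 2 windows share 1, whereas only the upstream one of the 2 *Tnfaip3* windows did.

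**Figure D2:**
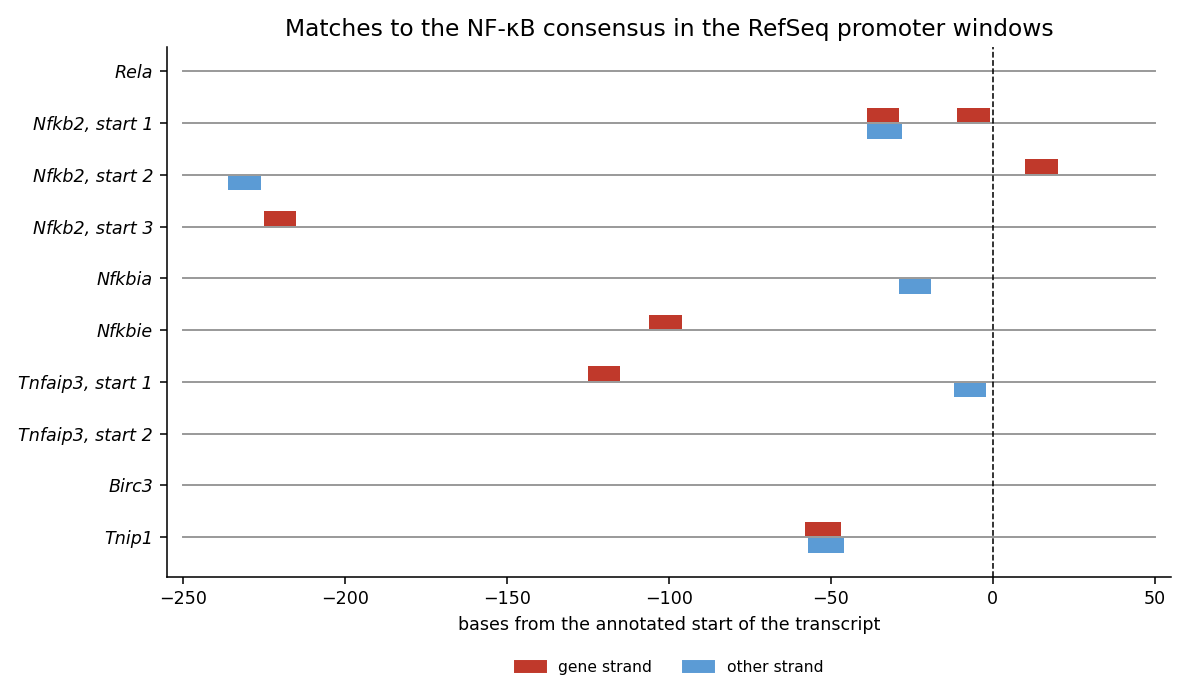
Position of each match to the NF-κB consensus, in bases from the annotated transcript start (dashed line), in the 10 RefSeq windows of 7 genes. Boxes above the line are on the strand of the gene and boxes below it on the other strand. *Nfkb2* (start 1), *Nfkbia*, *Tnfaip3* (start 1) and *Tnip1* have a match close before the start, beginning 11 to 58 bases upstream, and *Rela* and *Birc3* have none.

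Between 4-OHT DMSO and EtOH DMSO organoids, 7 of the 10 were higher in 4-OHT DMSO, by the labels, and 0 were lower. *Birc3*, *Rela* and *Tnfaip3* rose by more than 1 log2 unit, *Nfkb2* and *Nfkbia* by less, and *Nfkb1* and *Tnip1* least. *Relb*, *Nfkbiz* and *Nfkbie* did not pass the threshold. The test was limma on log2(FPKM + 1) over 12702 genes, with p-values adjusted by the Benjamini-Hochberg method and called under 0.05. Of all these genes 24.5% were higher and 16.7% lower by the same test. The median log2 fold change was 0.51 over the 10 genes and 0.077 over all genes tested. Adding 1 FPKM before taking logarithms shrinks the fold change of low genes such as *Nfkbie* and *Tnfaip3*, and of *Tlr2*, *Tnip3* and *Cxcl10* in the lists below. In these bulk libraries a change in the number of cells of a type and a change in RNA per cell cannot be told apart. The labels do not say whether the 2 libraries of a group came from separate cultures, so the p-values measure the spread between these libraries, which may be technical.

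Of the subunits, 3 rose and *Relb* did not pass the test. *Rela* (ENSMUSG00000024927, chr19:5637442-5648134, mm10) encodes p65, the transactivating subunit of the most common NF-κB dimer. It was at 8.99 and 11.3 FPKM in EtOH DMSO and at 24.9 and 22.3 FPKM in 4-OHT DMSO. The groups did not overlap, and the mean was 2.32 times higher, a log2 fold change of 1.15 (standard error 0.13, limma adjusted p = 0.00217). *Nfkb2* (ENSMUSG00000025225, chr19:46300994-46312400) encodes p100, the precursor of p52 and itself an IκB-like inhibitor of RelB. Its values were 8.61 and 9.71 FPKM in EtOH DMSO and 17.9 and 17.6 FPKM in 4-OHT DMSO. Both libraries labelled 4-OHT DMSO were well above both controls, with a log2 fold change of 0.89 (standard error 0.095, limma adjusted p = 0.00201). *Nfkb1* (ENSMUSG00000028163, chr3:135584655-135691969), which encodes the p50 precursor p105, moved less. It went from 3.94 and 4.60 FPKM to 5.62 and 5.80 FPKM, a log2 fold change of 0.35 (standard error 0.11, limma adjusted p = 0.0465). *Relb* (ENSMUSG00000002983, chr7:19606217-19629438) encodes the partner of p52 in the noncanonical pathway. Its values of 11.8 and 12.9 FPKM in EtOH DMSO overlapped the 13.4 and 12.6 FPKM of 4-OHT DMSO. The log2 fold change of *Relb* was 0.067, with a 95% interval of -0.17 to 0.30 (limma adjusted p = 0.596).

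Of the feedback inhibitors, 4 rose, and *Nfkbie* and *Nfkbiz* did not pass the test. *Birc3* (ENSMUSG00000032000, chr9:7847468-7873205) encodes cIAP2, a ubiquitin ligase that acts on RIPK1 in the TNF receptor complex. It had the largest rise of the 10 genes, from 5.49 and 6.21 FPKM to 20.0 and 19.9 FPKM. Its mean was 3.41 times higher, a log2 fold change of 1.61 (standard error 0.12, limma adjusted p = 0.000762). *Tnfaip3* (ENSMUSG00000019850, chr10:19000910-19015410) encodes A20, a ubiquitin-editing enzyme that ends NF-κB signaling. It was at 2.84 and 1.59 FPKM in EtOH DMSO and at 5.70 and 6.25 FPKM in 4-OHT DMSO. On the log2(FPKM + 1) scale the controls of *Tnfaip3* differed from each other by 0.57, the widest gap of the 10 genes, and the log2 fold change of 1.14 had a standard error of 0.20 (limma adjusted p = 0.00823). *Tnip1* (ENSMUSG00000020400, chr11:54910787-54962956) encodes ABIN1, which binds A20 and ubiquitin chains. It went from 12.8 and 14.7 FPKM to 17.8 and 18.6 FPKM, a log2 fold change of 0.38 (standard error 0.094, limma adjusted p = 0.0255).

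The IκB genes among the feedback inhibitors moved unequally. *Nfkbia* (ENSMUSG00000021025, chr12:55489409-55492647) encodes IκBα, an inhibitor that active NF-κB induces rapidly. It was at 59.3 and 57.9 FPKM in EtOH DMSO and at 90.7 and 92.2 FPKM in 4-OHT DMSO. Replicates lay close together, and the log2 fold change of 0.63 had the smallest standard error of the 10 genes (0.069, limma adjusted p = 0.00214). *Nfkbie* (ENSMUSG00000023947, chr17:45555700-45563169), which encodes IκBε, was at 0.784 and 0.547 FPKM in EtOH DMSO and at 1.26 and 1.11 FPKM in 4-OHT DMSO. The groups did not overlap, but the log2 fold change of 0.40 (standard error 0.14) did not pass the threshold (limma adjusted p = 0.0775). *Nfkbie* reached the minimum of 1 FPKM in 2 libraries through 4-OHT DMSO alone, so it could enter the test only by being high there. *Nfkbiz* (ENSMUSG00000035356, chr16:55811375-55838954) encodes IκBζ, a nuclear IκB protein that acts on secondary target genes. Its values of 6.59 and 8.20 FPKM in EtOH DMSO enclosed the 7.56 and 7.78 FPKM of 4-OHT DMSO. The log2 fold change of *Nfkbiz* was 0.052, with a 95% interval of -0.24 to 0.35 (limma adjusted p = 0.752).

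Scaling mattered for the smaller rises. With each library centred on its median, the median fold change of all genes went from 0.077 to -0.080 on the log2 scale, and the split of all calls turned from 3117 higher and 2120 lower to 2213 higher and 3187 lower. *Rela*, *Nfkb2*, *Nfkbia*, *Tnfaip3* and *Birc3* were still called after centring, 5 of 10 genes beside 17.4% of all genes, and 0 of the 10 were lower. *Nfkb1* (log2 fold change 0.19, limma adjusted p = 0.139) and *Tnip1* (0.22, limma adjusted p = 0.0790) were no longer called after centring. *Nfkb1* was not called either without EtOH DMSO replicate 1 (limma adjusted p = 0.142), EtOH Nec-1 replicate 1 (0.0883) or 2 (0.0888), or 4-OHT DMSO replicate 1 (0.101) or 2 (0.131). The same 5 omissions ended the call of *Tnip1*, with limma adjusted p of 0.0776, 0.0623, 0.0625, 0.0505 and 0.0785 in that order.

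Epithelial and immune cell markers moved in the same comparison. The 10 epithelium markers summed to 4097 and 4326 FPKM in EtOH DMSO and to 4679 and 5343 FPKM in 4-OHT DMSO, with 7 of them higher and 1 lower by the limma test. The sum of the 12 immune markers went from 3.48 and 3.56 FPKM to 7.20 and 9.07 FPKM. Most of it in 4-OHT DMSO was *Cd68*, which encodes a lysosomal protein of macrophages, at 0.774 and 2.01 FPKM in EtOH DMSO and at 5.69 and 7.72 FPKM in 4-OHT DMSO (log2 fold change 1.73, limma adjusted p = 0.00689). *Itgam*, which encodes an integrin of myeloid cells, was at 1.96 and 1.19 FPKM in EtOH DMSO and at 0.315 and 0.917 FPKM in 4-OHT DMSO (log2 fold change -0.68, limma adjusted p = 0.0786). Of the 3 immune markers tested, 1 was higher and 0 lower. After centring on library medians *Itgam* was called lower as well (limma adjusted p = 0.0490), and the epithelium markers were 3 higher and 2 lower. Of the other immune markers, *Adgre1* and *Tyrobp* of macrophages were listed at 0 in both 4-OHT DMSO libraries. *Ptprc* was at 0.0239 and 0.0497 FPKM there and at 0.0082 and 0.0027 FPKM in EtOH DMSO. *Csf1r* was at 0.280 and 0.0355 FPKM compared with 0.0665 and 0.0199 FPKM in EtOH DMSO. *Cd79a* was at 0.202 and 0 FPKM compared with 0 in EtOH DMSO, and *Cd3e* at 0.0134 and 0 compared with 0 and 0.0892 FPKM. *Lyz2*, also tested, was at 0.677 and 0.344 FPKM compared with 0.634 and 0.237 FPKM in EtOH DMSO (limma adjusted p = 0.815). The part of these markers in the changes of the 10 genes was not tested.

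In organoids labelled EtOH, none of the 10 genes passed the test for Nec-1. The limma test called 0 of 10 after adjustment, and 0.22% of all genes (28 genes, with 1689 at an unadjusted p under 0.05). The values of the 4 subunits with Nec-1 nevertheless lay under those of both controls, as did 39.1% of all genes tested, and the median log2 fold change was -0.12 over the 10 genes and -0.094 over all genes. *Nfkb2* had the largest difference, at 7.07 and 6.49 FPKM with Nec-1 and a log2 fold change of -0.38 (95% interval -0.62 to -0.15, limma adjusted p = 0.253). *Relb* followed at 9.41 and 10.2 FPKM (-0.31, 95% interval -0.54 to -0.073, limma adjusted p = 0.306). After centring on library medians, *Relb*, *Nfkb1* and *Nfkb2* still lay below both controls, *Rela* overlapped them and *Tnip1* lay above them, where 21.7% of all genes lay below and 22.4% above. Without centring *Nfkbia* was the one gene above both controls, at 66.9 and 67.2 FPKM with Nec-1 (0.19, 95% interval 0.018 to 0.37, limma adjusted p = 0.342). The other feedback inhibitors overlapped their controls, with intervals that ranged from -0.52 for *Nfkbie* to 0.60 for *Tnfaip3*. The immune marker sum was 5.72 and 6.27 FPKM with Nec-1 and 3.48 and 3.56 FPKM without it, and its part here was not tested.

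In organoids labelled 4-OHT, the 1 library with Nec-1 lay below both DMSO libraries for 9 of the 10 genes and above both for *Nfkbiz*. Because this group has 1 library, no test was made and the values carry no replicate check. Of all genes tested, 49.3% lay below both DMSO libraries. No member lay at least 1 log2 unit below each of them, as 1.15% of all genes did. The median difference in log2(FPKM + 1) was -0.31 over the 10 genes and -0.081 over all genes. Without *Nfkbie*, which reached the filter through 4-OHT DMSO alone, 8 of 9 genes lay below and the median was -0.30. *Tnfaip3* had the largest difference, at 3.49 FPKM with Nec-1, which was -0.58 and -0.69 on the log2 scale against the DMSO libraries. *Birc3* was at 15.0 FPKM (-0.39 on the log2 scale against the mean of the DMSO libraries), *Nfkb2* at 13.5 FPKM (-0.37) and *Tnip1* at 14.1 FPKM (-0.34). *Rela* was at 19.0 FPKM (-0.30), *Nfkbia* at 79.2 FPKM (-0.21), *Nfkb1* at 5.11 FPKM (-0.13), *Relb* at 11.0 FPKM (-0.22) and *Nfkbie* at 0.749 FPKM (-0.32). *Nfkbiz* was at 8.38 FPKM, 0.11 log2 units above the mean of the DMSO libraries and the highest of its 7 values. After centring on library medians, the same 9 genes lay below and *Nfkbiz* above, where 31.8% of all genes lay below. The immune marker sum was 10.6 FPKM in this library, above the 7.20 and 9.07 FPKM of 4-OHT DMSO, and the epithelial sum was 4293 FPKM, below 4679 and 5343 FPKM. Their part in these differences was not tested.

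Compared with the EtOH Nec-1 libraries, the 4-OHT Nec-1 library was higher for all 10 genes, as it was for 50.4% of all genes tested. These libraries are not shared with the comparison in DMSO, and again no test was made. *Birc3* (15.0 compared with 6.08 and 4.92 FPKM) and *Rela* (19.0 compared with 8.59 and 8.79 FPKM) lay at least 1 log2 unit above each EtOH Nec-1 library, as did 4.09% of all genes. With median centring or upper quartile scaling *Birc3* alone of the 10 genes passed this mark. Against these libraries the differences were 1.17 and 1.43 for *Birc3* and 1.06 and 1.03 for *Rela* on the log2 scale, and in DMSO the log2 fold changes were 1.61 and 1.15. *Nfkb2* differed by 0.90 with Nec-1 and by 0.89 in DMSO, and *Nfkb1* by 0.42 and 0.35. The differences with Nec-1 all rest on the 1 4-OHT Nec-1 library, which was also the one compared with 4-OHT DMSO. *Nfkbiz* differed by 0.13 with Nec-1 and by 0.052 in DMSO. *Tnfaip3* differed by 0.40 with Nec-1 and 1.14 in DMSO, *Nfkbia* by 0.24 and 0.63, *Nfkbie* by 0.23 and 0.40, and *Tnip1* by 0.045 and 0.38. Whether the differences with Nec-1 are smaller than those in DMSO was not tested. After centring on library medians, 7 genes lay above both EtOH Nec-1 libraries, *Relb* and *Nfkbiz* overlapped them and *Tnip1* lay below both, where 39% of all genes lay above and 49.4% below.

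**Figure D3:**
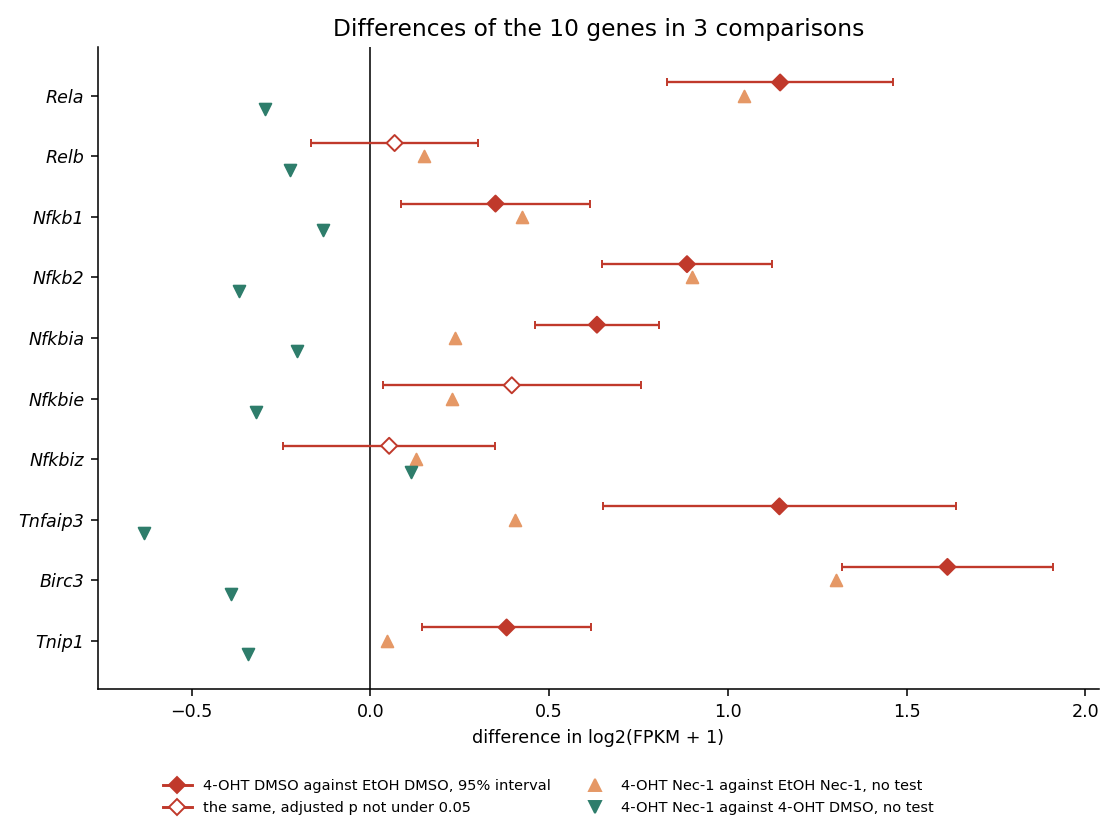
Differences in log2(FPKM + 1) of the 10 genes. Diamonds with 95% intervals are 4-OHT DMSO against EtOH DMSO (2 and 2 libraries, filled where the limma adjusted p is under 0.05), upward triangles 4-OHT Nec-1 against EtOH Nec-1 and downward triangles 4-OHT Nec-1 against 4-OHT DMSO (1 and 2 libraries, no test), and the comparisons with 4-OHT Nec-1 share that library. *Rela*, *Nfkb2* and *Birc3* lie far to the right in both comparisons with EtOH libraries, and 9 of 10 downward triangles lie below 0.

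For 6 of the 7 genes that rose with 4-OHT in DMSO, the 4-OHT Nec-1 library lay above all 4 libraries labelled EtOH and below both labelled 4-OHT DMSO. The exception was *Tnip1*, at 14.1 FPKM within the range of the EtOH libraries. The same 6 of 7 stood between after centring on library medians. Of all 3117 genes called higher in that comparison, 64.9% stood between, and 42.4% did after centring. The 3 genes without a call in DMSO did not stand between, since *Relb* and *Nfkbie* were within the EtOH range and *Nfkbiz* was above every other library.

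Genes in the rest of the pathway moved in both directions. The counts of each list stand beside 24.5% higher and 16.7% lower among all genes tested. Among the other Rel and IκB family genes, 1 of 5 was higher in the libraries labelled 4-OHT DMSO and 0 were lower. *Nfkbib*, which encodes IκBβ, went from 4.96 and 4.06 FPKM to 6.17 and 7.61 FPKM (log2 fold change 0.52, limma adjusted p = 0.0409), a call that 10 of 16 alternative analyses ended. *Rel*, which encodes c-Rel, a subunit best known from lymphoid cells, was low at 1.22 to 2.46 FPKM over all libraries and had a log2 fold change of 0.21 (limma adjusted p = 0.311). *Bcl3*, an IκB-like coactivator of p50 and p52, had a log2 fold change of 0.12 (limma adjusted p = 0.268), *Nfkbil1* of 0.27 (0.0999) and *Nfkbid* of 0.19 (0.451).

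Upstream of the IκB kinases, 12 of 29 listed receptors and ligands passed the filter on low values, of which 7 were higher and 2 lower in 4-OHT DMSO. *Tnf*, the ligand that starts canonical signaling, went from 1.00 and 1.38 FPKM to 13.6 and 13.9 FPKM, a log2 fold change of 2.76 (limma adjusted p = 0.000603). *Tlr2*, a receptor for bacterial lipoproteins, had a log2 fold change of 1.92 and *Tnfrsf11a*, which encodes RANK, of 1.56. *Tlr2* was at 0.225 FPKM or less in every EtOH library, so it entered the test through 4-OHT libraries alone. Its mean FPKM was 20.5 times higher in 4-OHT DMSO than in EtOH DMSO. The falls were *Il18*, a cytokine of the interleukin-1 family (-1.11), and *Ltbr*, the lymphotoxin β receptor of the noncanonical pathway (-0.80). With Nec-1 in organoids labelled 4-OHT, *Tnf* was at 7.06 FPKM and *Tlr2* at 1.15 FPKM, compared with 4.17 and 2.79 FPKM of *Tlr2* in 4-OHT DMSO.

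Of the adaptors, ubiquitin enzymes and kinases, 40 of 43 were tested, with 13 higher and 2 lower, beside 24.5% and 16.7% of all genes tested. *Tnip3*, which encodes the A20-binding protein ABIN3, had a log2 fold change of 2.06. Its mean FPKM was 35.5 times higher in 4-OHT DMSO than in EtOH DMSO. *Bcl10*, a partner of MALT1, had a log2 fold change of 1.22 and *Myd88*, the adaptor of Toll-like and interleukin-1 receptors, of 1.15. *Ripk1*, the kinase that Nec-1 inhibits, was at 3.37 and 3.66 FPKM in EtOH DMSO and at 8.32 and 8.26 FPKM in 4-OHT DMSO (1.04, limma adjusted p = 0.00155), and it stayed at 7.84 FPKM in 4-OHT Nec-1. The falls were *Itch* (-0.51), a ubiquitin ligase that works with A20, and *Tab1* (-0.48), a partner of the kinase TAK1.

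Of 50 genes listed as NF-κB targets other than the members, 32 were tested, with 18 higher and 3 lower in 4-OHT DMSO. What drives these genes in the organoids was not tested. On the log2(FPKM + 1) scale *Duoxa2*, the maturation factor of the epithelial oxidase DUOX2, had the largest rise (log2 fold change 3.50). The chemokine gene *Cxcl10* (2.82) and the ligand gene *Tnfsf9* (2.82) came next. Mean FPKM was 100 times higher for *Cxcl10*, 12.8 times for *Duoxa2* and 10.8 times for *Tnfsf9*, so their order rests on the added 1 FPKM. The falls were in the chemokine genes *Ccl28* (-1.67) and *Ccl25* (-1.36) and in *Pigr*, which encodes the receptor that carries IgA across the epithelium (-0.83). The 6 of these 32 targets below 1 FPKM in every EtOH library, *Cxcl10* among them, entered the test through 4-OHT libraries alone. So did 2 receptors and ligands (*Tlr2* and *Il17ra*) and 1 adaptor, *Tnip3*. Without all of these genes the counts were 13 higher and 3 lower of 26 targets, 5 and 2 of 10 receptors and ligands, and 12 and 2 of 39 adaptors, enzymes and kinases.

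Median log2 fold changes between 4-OHT DMSO and EtOH DMSO were 0.94 for receptors and ligands, 0.26 for adaptors, enzymes and kinases and 0.71 for the targets, beside 0.62 for the 4 subunits and 0.51 for the 6 feedback inhibitors. Among genes at 1 FPKM or more in an EtOH library, the 3 lists had medians of 0.47, 0.26 and 0.54 in that order (10, 39 and 26 genes). The 4 subunits stayed at 0.62, and the 5 feedback inhibitors without *Nfkbie* had 0.63. After centring on library medians the calls were 6 higher and 3 lower among receptors and ligands, 10 and 4 among adaptors, enzymes and kinases, 16 and 4 among targets, and 0 among the other Rel and IκB family genes. Of all genes tested 17.4% were then higher and 25.1% lower. With Nec-1 in organoids labelled EtOH, 0 genes of these lists were called by limma. Interferon-stimulated genes, listed because they share inducers with NF-κB targets, rose in the same comparison: all 19 that were tested were higher, with a median log2 fold change of 3.71. Of these, 9 entered the test through 4-OHT libraries alone, and the other 10 had a median of 3.08 and a range of 1.56 to 7.75. With Nec-1 in organoids labelled 4-OHT, 16 of the 19 lay at least 1 log2 unit below each DMSO library. The same held for 3 of the 32 genes listed as NF-κB targets and 0 of the 10 subunits and feedback inhibitors. Without the genes that reached 1 FPKM in 4-OHT DMSO alone, these were 12 of 15 interferon-stimulated genes, 3 of 29 targets and 0 of 9. Of all genes tested 1.15% lay that far below. The subunits and feedback inhibitors had risen by 0.052 to 1.61 log2 units and the interferon-stimulated genes by a median of 3.71. A gene with a small rise has less room to fall by 1 unit. These counts therefore do not compare the response to Nec-1 between the lists. The part of the interferon-stimulated genes in the changes of the 10 genes was not tested.

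**Figure D4:**
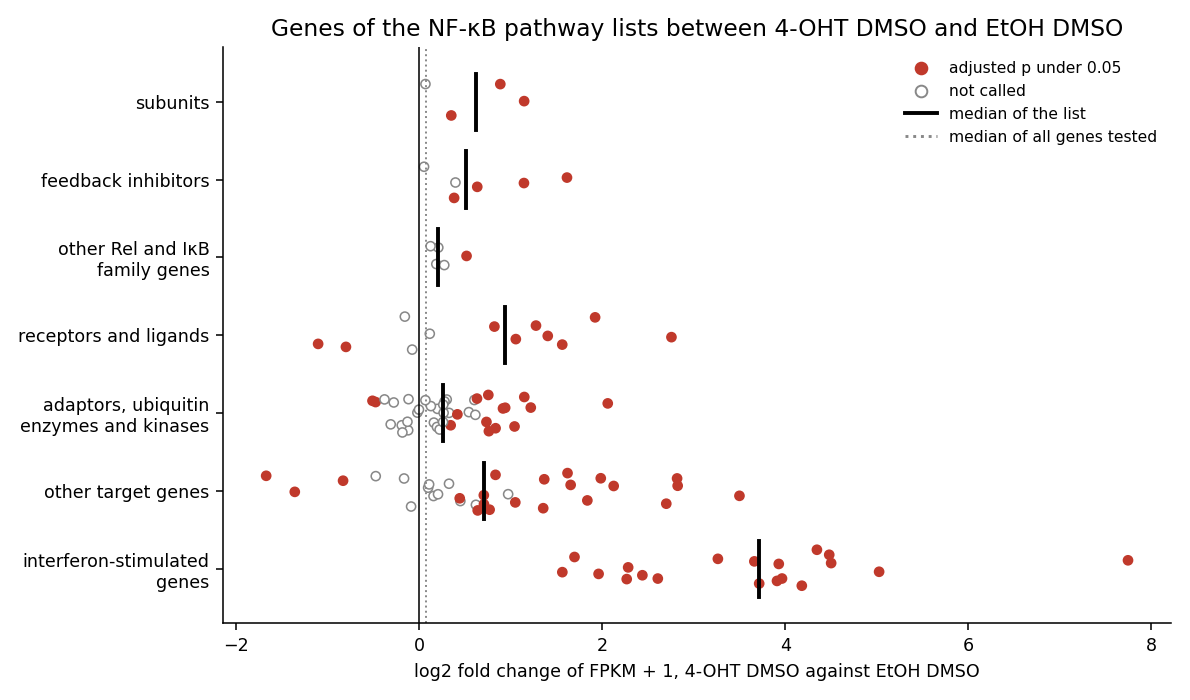
Log2 fold changes of FPKM + 1 between 4-OHT DMSO and EtOH DMSO (2 libraries each) for each tested gene of 7 lists. Filled points have a limma adjusted p under 0.05, black bars are list medians and the dotted line is the median of all 12702 genes tested (0.077). The subunits and feedback inhibitors lie at or to the right of 0, between 0.052 and 1.61, and the 19 interferon-stimulated genes have a median of 3.71.

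The genes most like the members in pattern were ranked by Pearson's r with the mean profile of log2(FPKM + 1), members left out, over the 7 libraries. For the 4 subunits they were *Ppl* (r = 0.999), *Txlna* (0.998), *Ist1* (0.998), *Psme3* (0.997) and *Wdsub1* (0.996). *Ppl*, which encodes the cell junction protein periplakin, ranged from 3.83 and 3.92 FPKM in EtOH Nec-1 to 9.01 and 8.65 FPKM in 4-OHT DMSO. For the 6 feedback inhibitors they were *Cnp* (0.999), *Gsap* (0.999), *Tigar* (0.999), *Gm12960* (0.998) and *Isg15* (0.997). *Gsap* was at 0.0528 FPKM or less in libraries labelled EtOH and at 0.640 FPKM in 4-OHT Nec-1. It could enter the ranking only by being high in 4-OHT DMSO (1.19 and 1.34 FPKM), so its r was partly set by the filter. *Isg15*, an interferon-stimulated ubiquitin-like modifier, was at 0.557 to 1.33 FPKM in libraries labelled EtOH, 331 and 469 FPKM in 4-OHT DMSO and 27.3 FPKM in 4-OHT Nec-1. The points share 4 group levels, and 19.5% and 18.2% of the other genes tested had an r of at least 0.9 with the subunit and the inhibitor profile. The r of single members with the mean of their own class, themselves included, lay between 0.76 (*Relb*) and 0.99 (*Nfkb2*) among subunits and between 0.22 (*Nfkbiz*) and 0.98 (*Birc3*) among feedback inhibitors.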

How the data were processed

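RNA-seq was made from 7 organoid libraries with the NEBNext Ultra kit on the Illumina HiSeq X platform. Per the submitters' processing notes HISAT2 2.1.0, StringTie 1.3.3b and mm10 were used. The authors deposited FPKM, and gene coordinates were taken from RefSeq annotation. No column was left unmapped (0). The 2 CUT&Tag samples were not analysed here.

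The 12702 genes that reached 1 FPKM in 2 or more libraries were fitted on log2(FPKM + 1) with limma 3.58.1 (mean-variance trend) in R 4.3.3, all 7 libraries, 1 mean per group and 3 residual degrees of freedom. Comparisons with 4-OHT Nec-1 were given as values. The fit was tested on simulated data. Tables were handled in Python 3.11.15 with pandas 2.3.3 and numpy 2.4.6, and figures drawn with matplotlib 3.10.9. The genes, lists and tests were chosen with earlier results of these data known. The named genes are all 10 members, *Mettl3*, *Tnf*, *Ripk1*, the other Rel and IκB family genes, the 3 largest called rises and falls of each other pathway list and the 5 genes most like each class, and marker genes beyond these were named after their values were seen.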

Additional observations from a re-analysis of the deposited data

Results flagged for a closer look

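*Nfkbia*, *Ltbr*, *Cxcl10* and *Tnfsf9* are given here because every library with Nec-1 lay on 1 side of the DMSO libraries in organoids labelled EtOH and on the opposite side in those labelled 4-OHT, and the difference between the responses was not tested. *Nfkbia* was above both DMSO libraries in EtOH organoids and below both in 4-OHT organoids, and its Nec-1 difference in 4-OHT organoids minus that in EtOH organoids was -0.40 in log2(FPKM + 1). *Cxcl10* (-1.80) and *Tnfsf9* (-0.29) went the same way. In EtOH organoids *Cxcl10* was near the floor, at 0.0445 and 0.0863 FPKM with DMSO and 0.126 and 0.160 FPKM with Nec-1. Its side there therefore rests on very low values. The share of all genes with such opposite sides was not counted. Of the 12702 genes tested, 1339 lay above and 4961 below both DMSO libraries with Nec-1 in EtOH organoids. In 4-OHT organoids 3240 lay above and 6264 below. Lying on 1 side was thus common, and these genes are not shown to stand out from the rest. *Ltbr* went the opposite way, from 68.0 and 62.3 FPKM to 51.3 and 54.0 FPKM with Nec-1 in EtOH organoids and from 36.4 and 37.4 FPKM to 44.8 FPKM in 4-OHT organoids (0.58).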

How the results depend on the processing

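Alternatives changed the model (no trend, the replicate block, a fit to the 4 compared libraries alone), the scaling (library medians, upper quartiles), the filter (none, or 1 FPKM throughout), the pseudocount (0.1, 0.25) or the libraries (each left out in turn). Between 4-OHT DMSO and EtOH DMSO, *Rela*, *Nfkb2*, *Nfkbia*, *Tnfaip3* and *Birc3* were called in 16 of 16 alternatives, *Tnip1* in 8, *Nfkb1* in 6 and *Nfkbie* in 1 of 13 (limma without the trend, adjusted p = 0.0461). The number of members called higher was 5 to 8 and 5 to 7 when a library was left out. Deviations of same-numbered libraries correlated with r of -0.040 to 0.0065, and the labels do not say whether such libraries were paired. With the replicate block the number of members called higher was 6, since *Nfkb1* had a limma adjusted p of 0.0573. No other call of a member changed with it. In EtOH Nec-1 against EtOH DMSO 0 members were called in any of these analyses, and the count of all genes called ranged from 8 without the filter to 87 with only the 4 libraries of the comparison. With 1 library the spread of 4-OHT Nec-1 is unknown, and depth behind single values is unknown too.

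Sign changes were seen among values that were not called. Between 4-OHT DMSO and EtOH DMSO, median centring and upper quartile scaling gave -0.089 and -0.086 for *Relb*, -0.10 and -0.094 for *Nfkbiz* and -0.034 and -0.026 for *Bcl3*. With a library left out, *Nfkbiz* ranged from -0.086 to 0.19 and *Nfkbid* from -0.0047 to 0.38. Between EtOH Nec-1 and EtOH DMSO, the same 2 scalings gave 0.020 and 0.013 for *Birc3*, 0.093 and 0.095 for *Tnip1*, 0.063 and 0.059 for *Itch*, 0.015 and 0.010 for *Bcl10*, 0.013 and 0.00084 for *Myd88*, 0.066 and 0.075 for *Pigr*, and 0.044 and 0.0084 for *Nfkbid*, and median centring gave 0.0053 for *Tlr2*. With a library left out, the ranges in that comparison were -0.098 to 0.18 for *Nfkbiz*, -0.16 to 0.16 for *Duoxa2*, -0.18 to 0.39 for *Tnfaip3*, -0.099 to 0.087 for *Tnip1*, -0.29 to 0.12 for *Myd88*, -0.046 to 0.42 for *Ccl25*, -0.055 to 0.18 for *Nfkbib*, -0.25 to 0.14 for *Nfkbid*, -0.12 to 0.048 for *Itch*, -0.21 to 0.050 for *Birc3*, -0.053 to 0.063 for *Ccl28* and -0.014 to 0.16 for *Ripk1*. Between 4-OHT Nec-1 and EtOH Nec-1, both scalings put 1 member, *Tnip1*, below each library. Median centring shifts every gene of this comparison by -0.14, and the difference of *Tnip1* went with it from 0.045 to -0.096.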
